A study of Rattus norvegicus with 24 samples.

Results

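The comparison described here set catgut group 2 against the treadmill group, with 6 quadriceps libraries on each side, chosen by the treatment that the labels give each sample. It used 12 of the 24 libraries of the series, and the control and catgut group 1 libraries are given only beside it. All animals were Sprague-Dawley rats of both sexes that were 6 weeks old when the study began, and each library came from the quadriceps muscle of 1 rat. The treadmill group trained with a rising load for 7 weeks and then ran until exhausted before the muscle was taken, with no thread embedded and no sham embedding described. Catgut group 2 had the same training and the same final run. Before it, absorbable collagen thread was embedded under ether at the acupoints used in catgut group 1 (Bai Hui, Qiang Feng, Yang Wa, Qian Shen, Xie Qi and Han Gou) plus Fei Shu, followed by a week of recovery. Catgut group 1 trained and ran likewise without the Fei Shu thread, and the control group did not train.

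The question was which muscle transcripts differed between exhausted rats with and without the larger set of embedded points. Skeletal muscle holds its own circadian clock, in which ARNTL (BMAL1) pairs with CLOCK or NPAS2 and switches on the Per and Cry genes, whose proteins then shut that pair off. The same pair drives Ciart, Nr1d1, Nr1d2 and the output factor genes Dbp and Tef, so that transcripts of the activator Arntl and of the Per and Dbp genes peak at opposite times of day. In muscle, this clock and the supply of fatty acids and glucocorticoids set the level of many metabolic genes, among them Ucp3 and Pdp1.

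The authors deposited a count and an FPKM value, that is fragments per kilobase of transcript scaled to the mapped fragments of the library, for each of 21067 genes and each library. The total count was 57292580 to 68040154 in the treadmill libraries and 54330979 to 69153343 in those of catgut group 2. Genes with a mean of at least 0.1 FPKM over the 24 libraries were tested, 14772 in all. Some libraries stood apart. Treadmill replicate 3 held transcripts of liver genes at a summed 471 FPKM, while the next treadmill library had 63.2 and catgut group 2 had 11.9 to 21.9. Outside the comparison, control replicate 2 held 316 FPKM of them and the catgut group 1 libraries 13.7 to 16.3. Treadmill replicate 2 had the highest summed level of macrophage markers of the 12, 211 FPKM where catgut group 2 had 28.2 to 98.4. The Y-linked gene Eif2s3y was above 12 counts in 3 of 6 treadmill libraries (replicates 4, 5 and 6) and in 2 of 6 libraries of catgut group 2 (replicates 1 and 5), although the study assigned as many males as females to each group. The 8 tested markers of skeletal muscle summed to between 94295 and 114573 FPKM in the treadmill group and between 87887 and 92042 in catgut group 2, without overlap, and in bulk muscle fewer cells of a type and less RNA per cell cannot be told apart. The extraction text of the labels speaks of adipose tissue although the samples are labelled quadriceps. Adipocyte markers summed to between 339 and 684 FPKM in the treadmill group and between 485 and 726 in catgut group 2. Of the 9 tested, however, 4 had a log2 fold change above 0 and 5 below, with a median of -0.33. An unadjusted p under 0.05 by edgeR was found for 0 of them. The sources also name different sequencing instruments. The labels give no hour of tissue collection, batch or date for any library.

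In catgut group 2 against the treadmill group, 35 genes had an adjusted p under 0.05 (edgeR's quasi-likelihood test with Benjamini-Hochberg adjustment over all genes tested), which is 0.237 percent of those tested. Of these, 16 were higher and 19 lower in catgut group 2, and they ranged from 0.359 to 237 FPKM on average over the 12 libraries. The study counted DEGs by a change of more than 1.5-fold with a p below 0.05 and does not say of which values. Here these limits were applied to the mean FPKM values and to the unadjusted p of edgeR. This criterion was met by 3.76 percent of all genes, 290 higher (1.96 percent) and 265 lower (1.79 percent), and by 29 of the 35. Weakly expressed genes made up much of that list, since 6.21 percent of the 4301 genes under 1 FPKM met it against 1.32 percent of the 604 genes at 100 FPKM or more. In 80 of the 265 lower DEGs, a single treadmill library held over 50 percent of the group's FPKM, and in 67 of them this was treadmill replicate 3. Leaving out treadmill replicates 2 and 3 together gave 473 higher and 163 lower DEGs, and limma on log2(FPKM + 1) with all libraries gave 351 higher and 166 lower. In 71 of the lower DEGs, all 6 catgut 2 libraries were at or under 12 counts, and in 30 of the higher ones all 6 treadmill libraries were. The adjusted calls of 5 genes (Arntl, Per2, Wee1, Ucp3 and Tmem140) held in each of the 12 fits that left out 1 library. The number of adjusted calls was lower by over 1.5 times without treadmill replicate 1 (6 genes), 4 (15) or 6 (11) and without catgut 2 replicate 1 (22), 3 (10), 4 (16), 5 (9) or 6 (10).

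**Figure D1:**
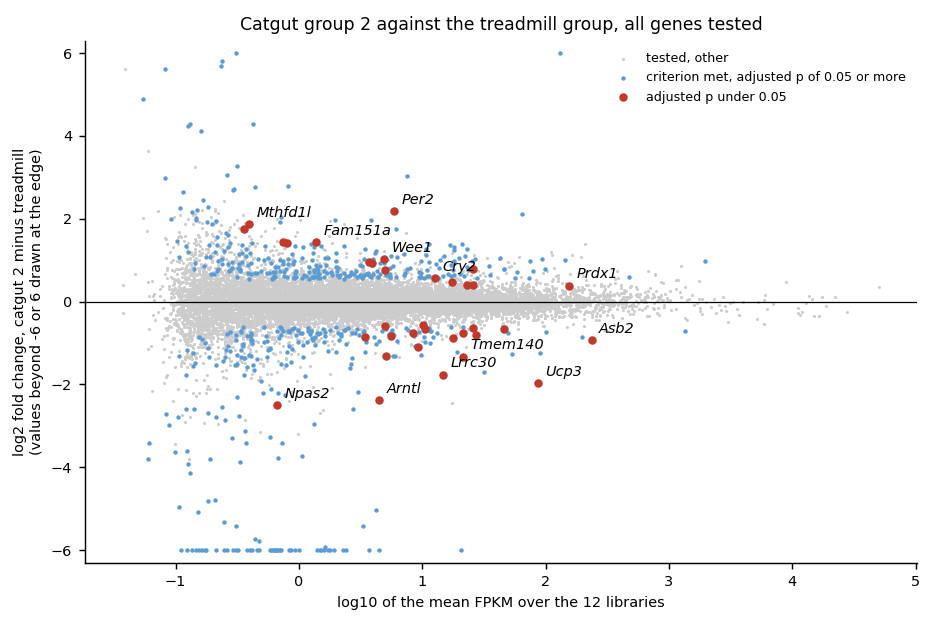
Log2 fold change of catgut group 2 against the treadmill group for each tested gene, plotted against the log10 of its mean FPKM over the 12 libraries. Red points are the 35 genes with an adjusted p under 0.05, blue points meet the study's criterion only, and points beyond 6 on the log2 scale are drawn at the edge; the blue points at the lower edge are mostly genes of low level.

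The 2 clock lists held a larger share of calls than all genes. They were chosen with earlier results of these data known, so the shares describe the lists and are not support. Of 18 tested genes of the core clock loop, 6 were higher and 2 lower by the criterion (44.4 percent against 3.76 percent of all genes), with a median log2 fold change of -0.02. Of 7 tested clock output genes, 4 were higher and 1 lower (71.4 percent), with a median of 0.78, where the median of all genes was 0.0035. Of these genes, 5 passed the adjusted test. Per2, Cry2 and Wee1 rose, and Arntl and Npas2 fell. The stretches upstream of Arntl, Per2 and Ciart are shown as examples, picked because they carry known clock motifs. A set of 3 motifs was searched on both strands of the windows from 250 bases before to 50 bases after the start of each gene in RefSeq (build GRCr8), where 18 of the 26 listed clock genes were matched. They were the E-box CACGTG, read by ARNTL and its partners and held by 6.42 percent of 33469 windows, the D-box TTATGTAA or TTATGCAA, read by DBP and TEF (1.73 percent), and the REV-ERB and ROR response element RORE (0.245 percent). The matches shown do not overlap each other. The capitals mark the matches in the 250 bases before the start: the REV-ERB and ROR element of Arntl (listed in RefSeq as Bmal1, chr1:176766078-176766327, plus strand), the D-box of Per2 (chr9:99496994-99497243, minus strand) and 3 E-boxes of Ciart (chr2:186112247-186112496, minus strand).
Arntl: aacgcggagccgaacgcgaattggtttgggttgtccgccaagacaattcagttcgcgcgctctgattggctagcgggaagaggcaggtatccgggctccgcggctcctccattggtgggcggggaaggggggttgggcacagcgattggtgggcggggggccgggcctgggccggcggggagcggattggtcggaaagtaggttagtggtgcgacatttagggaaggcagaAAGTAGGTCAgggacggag
Per2: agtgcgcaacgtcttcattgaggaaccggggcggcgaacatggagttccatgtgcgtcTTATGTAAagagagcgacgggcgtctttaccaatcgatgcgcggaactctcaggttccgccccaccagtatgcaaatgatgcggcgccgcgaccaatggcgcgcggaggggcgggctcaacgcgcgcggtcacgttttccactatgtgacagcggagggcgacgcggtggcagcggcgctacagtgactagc
Ciart: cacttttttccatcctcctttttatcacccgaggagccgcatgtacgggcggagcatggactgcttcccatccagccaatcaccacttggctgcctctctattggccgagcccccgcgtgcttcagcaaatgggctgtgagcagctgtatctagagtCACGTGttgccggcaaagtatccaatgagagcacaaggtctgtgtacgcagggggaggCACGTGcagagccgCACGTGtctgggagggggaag
The element of Arntl began 19 bases before the start, the D-box of Per2 192 bases before it, and the E-boxes of Ciart 93, 35 and 21 bases before it. Of the 18 matched clock genes, 4 held an E-box (Ciart, Bhlhe40, Bhlhe41 and Tef), 1 the D-box and 1 the RORE. Per1, Per3, Cry2, Dbp and Npas2, which also met the criterion, held none of the motifs in this window. Of 27 matched genes with an adjusted p under 0.05, 5 held an E-box. Of these, Selenos and Max rose, while Asb2, Vps37b and Frat2 fell. A link between motif and direction was not tested. A match describes these letters in this window and is not a measured binding site.

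The activator arm was lower in catgut group 2. Arntl (ENSRNOG00000014448, chromosome 1, 178039063 to 178137465 as the table lists it) was between 3.88 and 11 FPKM in the treadmill libraries (median 7.41) and between 0.808 and 2.3 FPKM in catgut group 2 (median 1.41). The groups did not overlap, and the log2 fold change was -2.37 (SE 0.255, adjusted p = 0.00494 by edgeR). Npas2, whose protein can stand in for CLOCK, was between 0.402 and 1.66 FPKM (median 1.2) in the treadmill group and between 0.059 and 0.317 FPKM (median 0.2) in catgut group 2. It fell by 2.51 on the log2 scale (SE 0.442, adjusted p = 0.0427), again with no overlap. Non-overlapping groups were found for 1.04 percent of all genes, in the higher direction for 0.582 percent and in the lower for 0.454 percent. Clock itself was between 0.218 and 2.41 FPKM in the treadmill group and between 0.114 and 1.91 FPKM in catgut group 2. It had a log2 fold change of -0.40 with an adjusted p of 0.923, which turned to 0.11 without treadmill replicate 3.

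Of the repressor arm, Per2 changed most. Its FPKM was between 1.03 and 2.99 (median 2.15) in the treadmill group and between 6.68 and 13.1 (median 9.49) in catgut group 2, a log2 fold change of 2.19 with an SE of 0.268 (adjusted p = 0.00691). Every library of catgut group 2 was at more than the highest treadmill library. Cry2 was between 9.19 and 11.2 FPKM (median 10.1) in the treadmill group and between 13.4 and 16.4 FPKM (median 15.8) in catgut group 2. It rose by 0.57 on the log2 scale (SE 0.0777, adjusted p = 0.0152), again without overlap. Per3 was between 0.911 and 2.87 FPKM in the treadmill group and between 3.89 and 5.4 FPKM in catgut group 2, a log2 fold change of 1.26 with an adjusted p of 0.0651. Per1, which glucocorticoids also induce, overlapped between the groups, from 3.98 to 18.6 FPKM against 15.3 to 34.2 FPKM (log2 fold change 0.92, adjusted p = 0.286). Ciart, a repressor of the ARNTL pair, was between 0.459 and 5.54 FPKM in the treadmill group and between 6.96 and 13.7 FPKM in catgut group 2, a log2 fold change of 1.75 with an adjusted p of 0.14. Cry1 and Nr1d1 (REV-ERB alpha) had overlapping ranges, with log2 fold changes of -0.17 and -0.51 (adjusted p = 0.817 and 0.452), and Nr1d2 (REV-ERB beta) had 0.67 (adjusted p = 0.277).

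The output genes followed the Per genes in direction. Dbp, a D-box activator, was between 6.54 and 46.1 FPKM (median 24.1) in the treadmill group and between 79.9 and 124 FPKM (median 111) in catgut group 2. The log2 fold change was 2.11 (SE 0.419) with an adjusted p of 0.0651, and the groups did not overlap. Tef, a relative of Dbp, was between 22.6 and 44.6 FPKM in the treadmill group and between 45.5 and 72 FPKM in catgut group 2, a log2 fold change of 0.78 with an adjusted p of 0.0663. Usp2, a clock-driven deubiquitinase gene, went from 13.3 to 24.4 FPKM to a range of 26.5 to 49.6 FPKM (log2 fold change 1.03, adjusted p = 0.0584.) Wee1, a kinase gene that holds cells before mitosis and carries clock control, was between 2.29 and 4.66 FPKM (median 2.93) against 5.45 to 7.51 FPKM (median 6.55). It rose by 1.03 on the log2 scale (SE 0.13, adjusted p = 0.00825). Nfil3, the D-box repressor, had the opposite sign, with 9.05 to 25.6 FPKM against 5.17 to 11.5 FPKM and a log2 fold change of -0.70 with an adjusted p of 0.316. Hlf, the remaining member of the Dbp family, had 0.27 (adjusted p = 0.846).

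**Figure D2:**
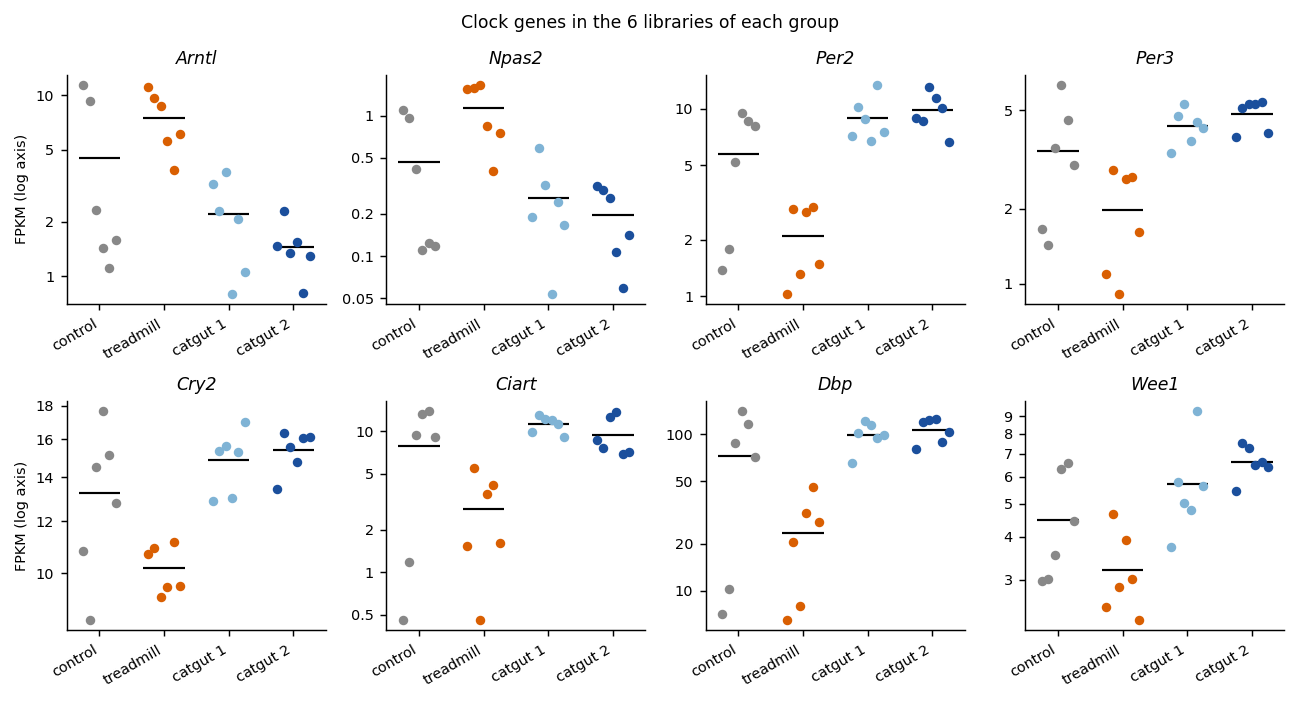
FPKM on a log axis of 8 clock genes in each library, with 6 points per group in the order of the replicate numbers and a black line at the group mean. In the treadmill and catgut 2 columns the points of each gene do not overlap, while control replicates 1 and 2 lie at the level of the treadmill points for Arntl, Per2 and Dbp.

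The clock differences were also computed apart in libraries with and without Eif2s3y, a split that was chosen after the data were seen. Among libraries without Eif2s3y (3 treadmill, 4 catgut group 2), the log2 fold change was 3.37 for Dbp, 1.64 for Per3 and -1.29 for Nfil3. Among libraries with it (3 treadmill, 2 catgut group 2), it was 1.27 for Dbp, 0.99 for Per3 and 0.14 for Nfil3. Arntl (-2.61 and -2.18) and Per2 (2.52 and 1.96) kept their sign in both subsets, and the difference between the subsets was not tested. With the Y-linked level as a covariate, the adjusted p by edgeR was 0.00118 for Arntl, 0.0035 for Per2, 0.0269 for Dbp, 0.0347 for Per3, 0.0219 for Tef and 0.0323 for Usp2. It was higher than without the covariate for Wee1 (0.00932), Ciart (0.148), Per1 (0.3), Nr1d2 (0.335), Nfil3 (0.325) and Nr1d1 (0.546).

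The libraries outside the comparison did not form a common level for these genes. Arntl was at 11.4 and 9.26 FPKM in control replicates 1 and 2 and between 1.11 and 2.32 FPKM in the other 4 control libraries. Per2 was at 1.38 and 1.79 FPKM in those same 2 libraries and between 5.2 and 9.51 FPKM in the others. On the log2(FPKM + 1) scale, each of the 13 clock genes that met the criterion was nearer to the treadmill mean than to the catgut 2 mean in control replicates 1 and 2, and 0 to 2 of the 13 were so in the other control libraries. In catgut group 1, 1 or 2 of the 13 were nearer to the treadmill mean in each library. Over all 35 genes with an adjusted p under 0.05, 31 and 32 were nearer to the treadmill mean in control replicates 1 and 2, 8 to 19 in control replicates 3 to 6 and 4 to 16 in the libraries of catgut group 1. Against the control group, the log2 fold change of catgut group 2 was -1.67 for Arntl and 0.78 for Per2 (adjusted p = 0.189 and 0.354 by edgeR), a comparison that shares the catgut 2 libraries with the main one. What sets control replicates 1 and 2 apart was not tested.

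Several other genes with an adjusted p under 0.05 act in metabolism or transport. Ucp3 encodes a mitochondrial carrier of muscle that follows fatty acid supply. It was between 89 and 231 FPKM (median 114) in the treadmill group and between 29.5 and 43.8 FPKM (median 35.3) in catgut group 2, a fall by 1.96 on the log2 scale (SE 0.23, adjusted p = 0.00589). In the control group it stood at 286 and 212 FPKM in replicates 1 and 2 and at 16.4 to 69.5 FPKM in the others. Pdp1 (chromosome 5, 25577451 to 25584288), the phosphatase that switches on pyruvate dehydrogenase, was between 14.7 and 24.5 FPKM (median 18.6) in the treadmill group and between 25.3 and 38 FPKM (median 34.1) in catgut group 2. It rose by 0.78 (SE 0.122, adjusted p = 0.023) with no overlap. Lpin1, a phosphatidate phosphatase that also acts as a coactivator of fatty acid oxidation genes, fell from a median of 22.2 to 12.3 FPKM (log2 fold change -0.88, adjusted p = 0.0421.) Mthfd1l of mitochondrial folate metabolism rose from a median of 0.172 to 0.629 FPKM (log2 fold change 1.87, adjusted p = 0.0204.) Slc7a2, a carrier of arginine and lysine (chromosome 16, 54460067 to 54513349), was between 2.02 and 3.47 FPKM in the treadmill group and between 3.77 and 5.95 FPKM in catgut group 2 (log2 fold change 0.93, SE 0.129, adjusted p = 0.0152).

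Further genes with an adjusted p under 0.05 were lower in catgut group 2. Asb2, a ubiquitin ligase subunit of muscle (chromosome 6, 127212273 to 127248372), was between 261 and 353 FPKM (median 311) in the treadmill group and between 128 and 252 FPKM (median 156) in catgut group 2. It fell by 0.92 on the log2 scale (SE 0.137, adjusted p = 0.0181), and replicate 2 was the highest library of catgut group 2. Lrrc30, a gene of a leucine-rich repeat protein (chromosome 9, 115849732 to 115850634), was between 19.4 and 25.3 FPKM in the treadmill group and between 4.32 and 10.7 FPKM in catgut group 2, a fall by 1.76 (SE 0.247, adjusted p = 0.0152). Tmem140, a gene of a membrane protein, fell from a median of 30.7 to 12.4 FPKM (log2 fold change -1.33, SE 0.147, adjusted p = 0.00494). All of Asb2, Lrrc30 and Tmem140 separated the groups without overlap. Rbm20, which steers the splicing of titin, fell from a median of 10.4 to 6.24 FPKM (log2 fold change -0.75, adjusted p = 0.023). Stat5b, a transducer of growth hormone and cytokine signals, fell from a median of 23.9 to 15.9 FPKM (log2 fold change -0.76, adjusted p = 0.0343). Palmd (palmdelphin) fell likewise, from a median of 34.9 to 18.6 FPKM (log2 fold change -0.80, adjusted p = 0.0181), with catgut 2 replicate 2 at 28.8 FPKM against 17.6 to 19.8 in the other 5 libraries.

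**Figure D3:**
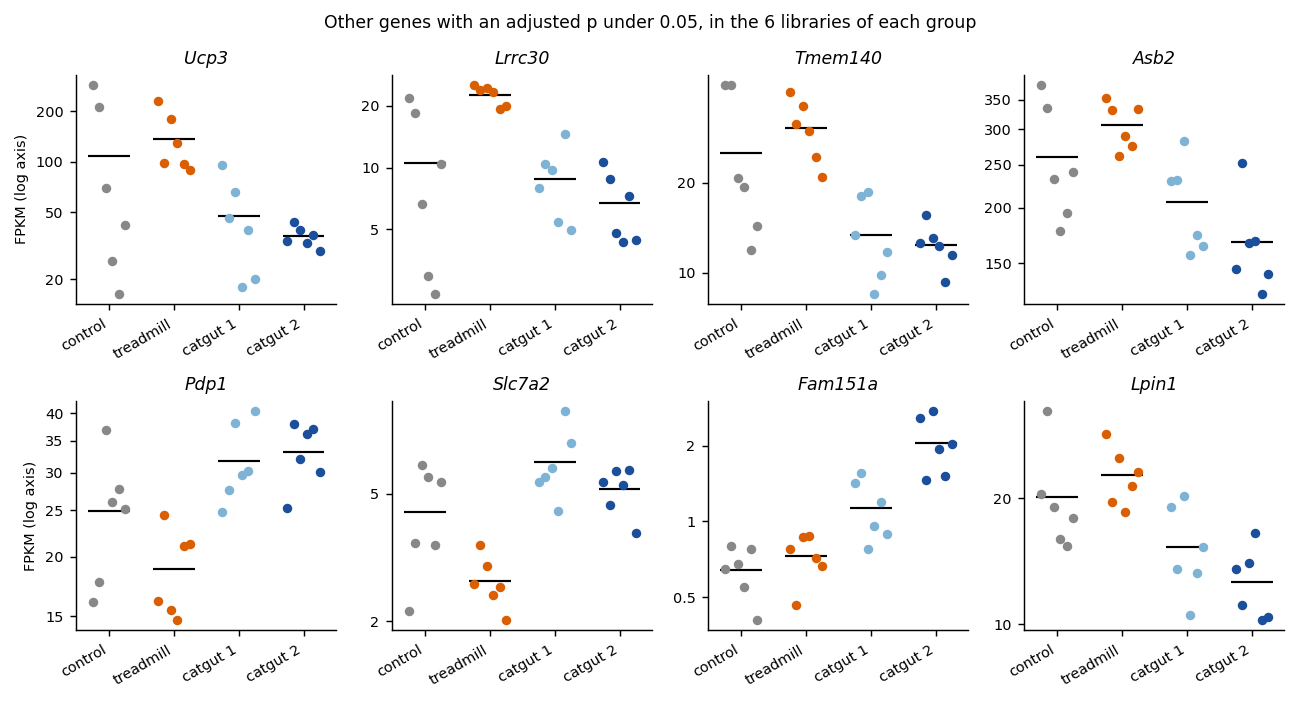
FPKM on a log axis of 8 further genes with an adjusted p under 0.05, with 6 points per group in the order of the replicate numbers and a black line at the group mean. For Ucp3 and Tmem140 control replicates 1 and 2 lie among or above the treadmill points, while for Fam151a the control points lie with the treadmill points as a whole.

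The remaining adjusted genes cover signalling, protein quality control and other functions. Among those that rose, Selenos of the endoplasmic reticulum degradation machinery and Ypel5 each had a log2 fold change of 0.40 (adjusted p = 0.0153 and 0.0181). Prdx1, an abundant peroxide-removing enzyme, was between 116 and 155 FPKM in the treadmill group and between 165 and 191 FPKM in catgut group 2 (log2 fold change 0.39, SE 0.07, adjusted p = 0.0457). Max, the partner of MYC, rose by 0.48 and Mbd4, a DNA repair glycosylase, by 0.95 (adjusted p = 0.0434 and 0.0427). The lipid flippase Atp8a1 rose by 0.77, Fam151a by 1.44, the myeloid receptor Cd300e by 1.42, the keratin Krt2 by 1.75 and the protease Adamts20 by 1.45 (adjusted p = 0.0204, 0.0398, 0.023, 0.0434 and 0.0436). Cd93, a receptor of the endothelium, was lower, with a median of 6.75 FPKM against 4.2 FPKM and a log2 fold change of -0.82 with an adjusted p of 0.0343. Dyrk2, a kinase gene, had -1.32 and the solute carrier gene Slc45a4 -0.84 (adjusted p = 0.0407 each). Of Wnt signalling, the receptor Fzd7 had -0.66 and Frat2, which binds GSK3, -1.09 (adjusted p = 0.0423 each). Vps37b of endosomal sorting had -0.58, Sh3bp5 -0.63 and RGD621098 -0.57 (adjusted p = 0.0421, 0.0494 and 0.0494). Zfp385b, a zinc finger gene with one of the largest non-overlapping differences, had means of 0.281 and 1.15 FPKM and a log2 fold change of 2.04 with an adjusted p of 0.0746.

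Of the 35 genes, 4 also had an adjusted p under 0.05 between catgut group 2 and the control group, a comparison in which 0.508 percent of all genes had one. Among them, Rbm20 had a log2 fold change of -0.76 there, Stat5b -0.66 (adjusted p = 0.039 each) and Fam151a 1.67 (adjusted p = 0.012). For Fam151a, catgut group 2 was between 1.46 and 2.73 FPKM, above each of the 6 treadmill (0.467 to 0.873) and 6 control libraries (0.408 to 0.799). These values share the catgut 2 libraries with the main comparison and are not separate support for it.

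Of 36 tested genes of fatty acid use, 1 was higher (Lpl) and 2 were lower (Ucp3 and Angptl4) by the criterion. This was 8.33 percent against 3.76 percent of all genes, and the median log2 fold change was 0.23. Lpl, which frees fatty acids from circulating lipoproteins, was between 27.8 and 88.1 FPKM (median 38.9) in the treadmill group and between 46 and 136 FPKM (median 115) in catgut group 2. The groups overlapped, and the log2 fold change was 0.99 (SE 0.359, adjusted p = 0.317, exact permutation p = 0.026). Angptl4, an inhibitor of that lipase, had 3.56 to 25.4 FPKM against 2.9 to 8.17 FPKM (log2 fold change -1.08, adjusted p = 0.435), and without treadmill replicate 3 its log2 fold change was -0.67. Without that library 3 genes of the list were higher and 1 was lower. Among libraries without Eif2s3y 0 were higher and 3 lower, and among those with it 3 were higher and 1 lower, a difference that was not tested. Cpt1a, the entry enzyme of mitochondrial fatty acid oxidation, had a log2 fold change of 0.47 with an adjusted p of 0.171 under the fold limit. Of 19 genes of lipid synthesis, 1 was higher and 2 were lower (15.8 percent), Lpin1 among them. Dgat2 of triglyceride synthesis had a log2 fold change of 1.05 and the lipogenic factor Srebf1 -0.84 (adjusted p = 0.304 and 0.143). Of 18 regulators of the PGC-1, ERR and PPAR group, the corepressor Nrip1 alone met the criterion (5.56 percent). It had a log2 fold change of 0.97 with an adjusted p of 0.102, and Ppargc1a had 0.26 (adjusted p = 0.402).

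Glucose genes had a median log2 fold change of -0.13 over 30 tested members, and 1 met the criterion (3.33 percent against 3.76 percent of all genes). Pfkfb3, whose product raises the activator of phosphofructokinase, was between 18.2 and 71.8 FPKM (median 48.3) in the treadmill group and between 7.52 and 22.6 FPKM (median 15.7) in catgut group 2. Its log2 fold change was -1.69 with an SE of 0.335 (adjusted p = 0.0651), and treadmill replicate 3 alone lay inside the range of catgut group 2. Aldoa of glycolysis and Pygm of glycogen breakdown had -0.26 and -0.32, and the hexokinase Hk2 had 0.44 (adjusted p = 0.349, 0.372 and 0.342).

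Of 26 tested genes that glucocorticoids or FoxO factors drive or that act in muscle wasting, 4 were higher and 1 was lower by the criterion (19.2 percent against 3.76 percent of all genes), and 6 had an unadjusted p under 0.05. The counts were 2 to 5 higher and 1 to 2 lower over the alternatives, with 2 higher and 1 lower without catgut 2 replicate 4. Among libraries without Eif2s3y 1 was higher and 1 lower. Among those with it (3 treadmill, 2 catgut group 2), 4 were higher and 0 lower. The split was chosen after the data were seen, and the difference between the subsets was not tested. Tsc22d3 (GILZ), a glucocorticoid target, was between 47.6 and 71.4 FPKM (median 59.3) in the treadmill group and between 65.5 and 199 FPKM (median 113) in catgut group 2 (log2 fold change 1.04, SE 0.223, adjusted p = 0.0901). Klf15, a mediator of glucocorticoid action in muscle, was between 11.2 and 22.8 FPKM against 20.6 to 30.7 FPKM (log2 fold change 0.67, adjusted p = 0.058). Glul (glutamine synthetase) had 0.60 and the stress gene Ddit4 0.90 (adjusted p = 0.162 and 0.337). Fbxo32 (atrogin-1), a ubiquitin ligase of muscle wasting, had the opposite sign. It was between 38.6 and 159 FPKM (median 62) in the treadmill group and between 19 and 47.4 FPKM (median 26.9) in catgut group 2 (log2 fold change -1.26, SE 0.312, adjusted p = 0.14). Its log2 fold change was -1.75 among libraries without Eif2s3y and -0.55 among those with it, a difference that was not tested.

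Of 24 tested genes of antioxidant defence, 22 had a log2 fold change above 0, where 7479 of all 14772 genes did. The median of the list was 0.155. Nqo1 alone met the criterion (4.17 percent against 3.76 percent of all genes), and Prdx1, given above, had the lowest adjusted p. Nqo1, an NRF2 target, was between 6.05 and 8.67 FPKM in the treadmill group and between 9.22 and 14.1 FPKM in catgut group 2, without overlap (log2 fold change 0.61, SE 0.14, adjusted p = 0.109). Sod1 had 0.24, Sod3 0.35 and Nfe2l2, which encodes NRF2 itself, 0.31 (adjusted p = 0.347, 0.264 and 0.329). Of the proteasome genes 0 of 44 met the criterion, but 36 were above 0, the median was 0.136, and 11 had an unadjusted p under 0.05 in the higher direction against 0 in the lower, where 5.6 and 5.14 percent of all genes had one. The core subunit genes Psma5, Psma2 and Psma1 had log2 fold changes of 0.37, 0.29 and 0.29 (adjusted p = 0.0513, 0.099 and 0.111). Genes of a pathway are not independent replicates, so these counts describe the lists and carry no test.

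Among heat shock genes 1 of 23 met the criterion (Dnajb4, log2 fold change 0.65, adjusted p = 0.18). Among unfolded protein and amino acid stress genes 1 of 23 did (Phgdh of serine synthesis, 1.26, adjusted p = 0.242). Among autophagy genes 1 of 24 did, the kinase gene Ulk1 at -0.62 (adjusted p = 0.281). These shares (4.35, 4.35 and 4.17 percent) were near the 3.76 percent of all genes. Over the alternatives 0 to 6 heat shock genes were higher and 0 lower. Of the 23 heat shock genes, 19 had a log2 fold change above 0, as did 7479 of all 14772 genes. The autophagosome gene Gabarapl1 had 0.52 (adjusted p = 0.104). Of 33 immediate-early genes 0 met the criterion, against 3.76 percent of all genes, and 1 had an unadjusted p under 0.05 (higher). In the alternatives 0 to 2 were higher and 0 to 1 lower. Immediate-early genes respond within minutes to hours of exercise. Both groups had run to exhaustion, and the part of that run in these counts was not tested.

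Fibre type genes gave 1 call in 28 (3.57 percent against 3.76 percent of all genes), Myh3 (embryonic myosin). It had 0.876 to 2.97 FPKM against 1.59 to 7.33 FPKM and a log2 fold change of 1.04 with an adjusted p of 0.374. Over the 28, 15 were above 0 and 13 below, and the median was 0.076. At an unadjusted p under 0.05, 1 was higher and 6 were lower. Among the fast fibre genes of the list, 4 that did not meet the criterion were Tnnt3 at -0.35, Myl1 at -0.31, Actn3 at -0.49 and Mybpc2 at -0.44 (adjusted p = 0.286, 0.352, 0.394 and 0.379). These 4 do not stand for all fast fibre genes. Ckm, the muscle creatine kinase, had -0.35 (adjusted p = 0.338), and its groups did not overlap. The 8 muscle markers had a median of -0.29, with 0 meeting the criterion and 4 at an unadjusted p under 0.05 in the lower direction, and the part of their lower sum in the other results was not tested. Of 22 myogenic genes, 1 met the criterion (4.55 percent), Myf6 at 0.56 (adjusted p = 0.384). Of 19 angiogenic genes 0 did, with 1 at an unadjusted p under 0.05, and Vegfa had a log2 fold change of 0.48 with an adjusted p of 0.268.

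Among 29 matrix genes, 2 met the criterion, both lower (6.9 percent against 1.79 percent of all genes in the lower direction). Col5a3 had a log2 fold change of -1.21 and the membrane protease Mmp14 -0.85 (adjusted p = 0.104 and 0.437), and catgut 2 replicate 2 was the highest library of its group for both. Of 22 tested cytokine and chemokine genes, 3 were lower by the criterion (13.6 percent against 1.79 percent of all genes). The median log2 fold change was -0.73, which ranged from -0.97 to -0.24 over the alternatives and was -0.36 without treadmill replicates 2 and 3. Ccl7, a monocyte chemokine, reached 23.1 FPKM in treadmill replicate 2 and 0.444 to 2.37 FPKM in the other treadmill libraries against 0.308 to 2.03 FPKM in catgut group 2. Its log2 fold change was -2.18 (adjusted p = 0.385) and came to -0.59 at the smallest when 1 library was left out. Cx3cl1 had -0.98 and Ccl4 -3.60 (adjusted p = 0.104 and 0.372). Without treadmill replicate 2, 1 cytokine gene met the criterion, and over the alternatives 1 to 5 did, all lower. In the subsets chosen after the data were seen, 6 were lower among libraries without Eif2s3y and 2 among those with it. That difference was not tested. Macrophage markers had a median of -0.41 with 0 of 9 meeting the criterion and 0 at an unadjusted p under 0.05, and their part in the cytokine values was not tested. Of 24 interferon response genes, 1 was higher (Ifi44) and 1 lower (Ifit2), 8.33 percent against 3.76 percent of all genes.

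**Figure D4:**
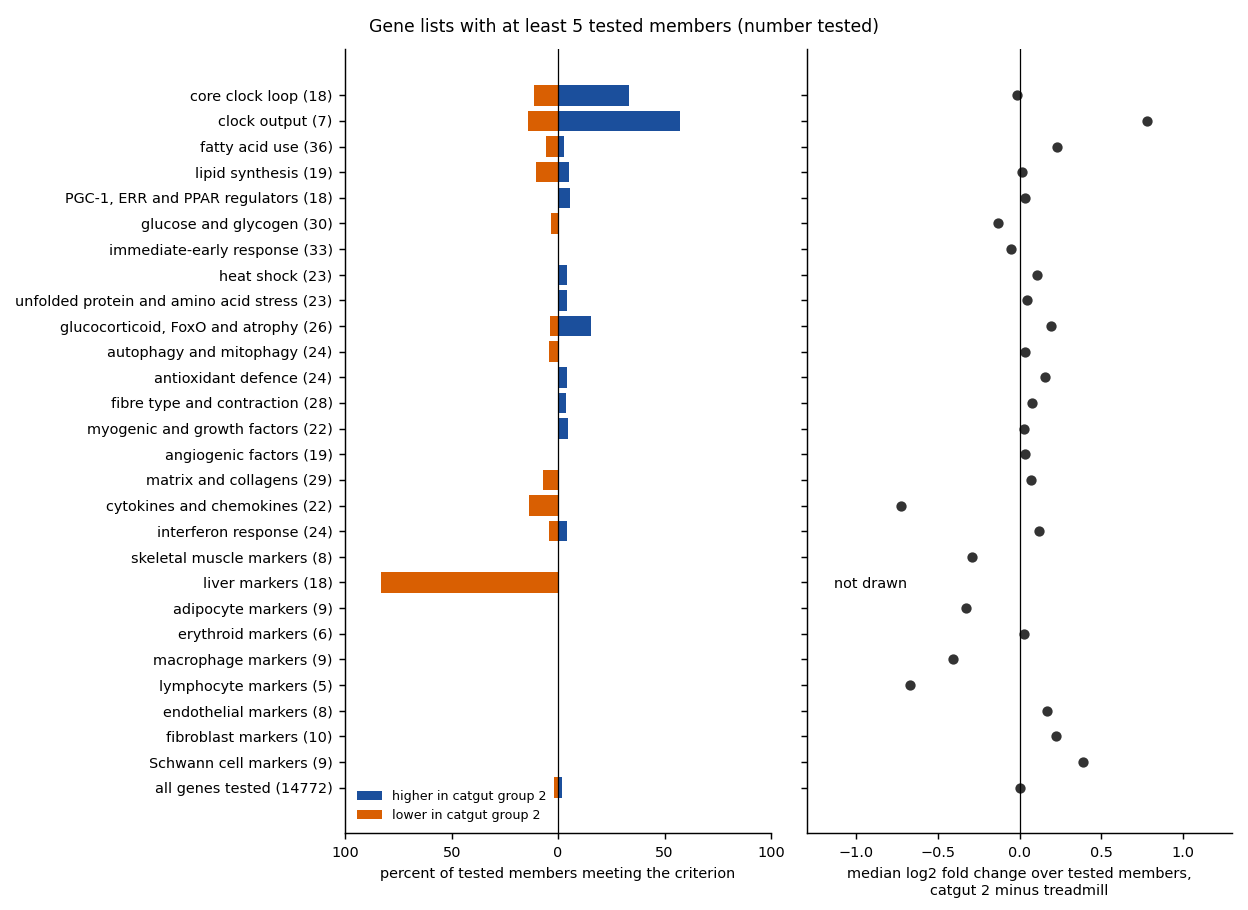
Left, percent of the tested members of each gene list that met the study's criterion, drawn to the right where higher and to the left where lower in catgut group 2; right, the median log2 fold change of the members, not drawn for the liver markers, whose fitted values have no exact size. The clock lists extend mostly to the right and the liver markers to the left, while all tested genes together show 1.96 percent higher and 1.79 percent lower.

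Transcripts of the liver were at trace levels in catgut group 2. Of 21 liver markers with values, 18 were tested. Some passed the filter only through libraries outside catgut group 2, such as Apoc3 and Apoa5. These averaged 3.59 and 0.519 FPKM in the treadmill group and 0 and 0.00094 FPKM in catgut group 2. The filter thus favoured lower calls, and the share of calls describes the list only. Of the 18, 15 were lower by the criterion (83.3 percent against 1.79 percent of all genes). This count was 12 without treadmill replicate 3, 5 without treadmill replicates 2 and 3, and 2 to 16 over the alternatives. Of the 21, 13 were at or under 12 counts in every catgut 2 library, so fitted fold changes of this list have no exact size. Alb (albumin) was at 226 FPKM in treadmill replicate 3, at 14.3 in replicate 2 and between 0.283 and 3.14 in the other 4 treadmill libraries, and between 0 and 0.268 FPKM in catgut group 2. The groups did not overlap, although 4 of the 6 catgut 2 libraries were at or under 12 counts, and the adjusted p was 0.0957. Serpina1 (alpha-1 antitrypsin) was at 25.9 FPKM in treadmill replicate 3 and at most at 1.96 FPKM in the other 11 libraries of the comparison. Against the limit of 12 counts per library, it was at least 45.2-fold lower in catgut group 2, and at least 5.73-fold without treadmill replicate 3. Ttr (transthyretin) was at least 17.0-fold lower, or 3.16-fold without that library. The study followed 4 lipid genes of the PPAR pathway, of which Lpl is given above. Apoc3 (ENSRNOG00000047503), an apolipoprotein of the liver and intestine, had an FPKM of 0 in each catgut 2 library and in treadmill replicates 1 and 4, and at 18.6, 1.82, 0.798 and 0.326 FPKM in treadmill replicates 3, 2, 6 and 5. It was at least 12.5-fold lower than in the treadmill group, or at least 2.06-fold without treadmill replicate 3, and the exact permutation p was 0.0606. Fabp1, the liver fatty acid binding protein, was at 35.1 FPKM in treadmill replicate 3 and between 0.163 and 2.35 in the others, against 0.0585 to 0.346 FPKM in catgut group 2 (adjusted p = 0.17). Slc27a2, a fatty acid transporter, was at most at 1.24 FPKM in either group (adjusted p = 0.523). Without treadmill replicates 2 and 3, Apoa1 had a log2 fold change of 0.10 in place of -2.95.

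**Figure D5:**
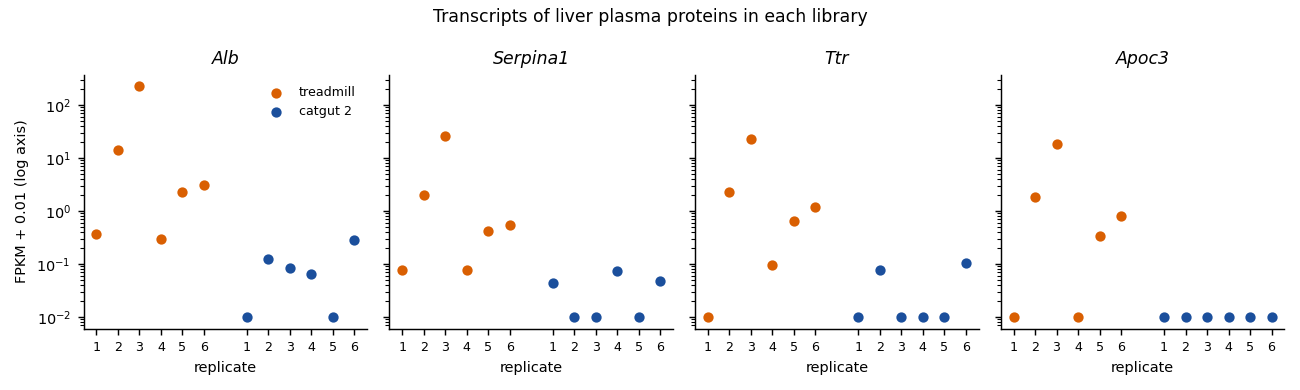
FPKM of 4 liver transcripts in the 6 treadmill and 6 catgut 2 libraries by replicate number, with 0.01 added so that zeros can be drawn on the log axis. Treadmill replicate 3 holds the highest point in each panel, followed by treadmill replicate 2.

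The KEGG column of the table assigned 5307 of the tested genes to at least 1 pathway, and 4.24 percent of these met the criterion, 104 higher and 121 lower. Circadian rhythm held 4 higher and 2 lower among 29 genes (20.7 percent), and circadian entrainment 5 and 4 among 67 (13.4 percent), with Per1, Per2 and Per3 in both. The lower count of entrainment was 2 without treadmill replicate 2 or without catgut 2 replicate 1, 5 or 6. PPAR signaling held 1 higher (Lpl) and 7 lower among 65 genes, and 6 of these 7, Apoc3, Apoa5, Apoa2, Fabp1, Apoa1 and Cyp8b1, are also on the list of liver markers. Without treadmill replicate 3 the PPAR counts were 5 higher and 4 lower, and without treadmill replicates 2 and 3 they were 6 higher and 1 lower. Complement and coagulation cascades held 0 higher and 10 lower among 56, among them genes of liver plasma proteins such as Serpina1 and fibrinogen, and 4 were lower without treadmill replicate 3 and 1 without both libraries. Steroid hormone biosynthesis held 1 higher and 7 lower among 27, mainly cytochrome P450 genes such as Cyp2c7, and 1 and 1 without both. Drug metabolism by cytochrome P450 held 6 higher and 2 lower among 39, or 9 and 0 without both. Of its members Gsta1, a glutathione transferase gene, had a log2 fold change of 1.26 and the flavin monooxygenase genes Fmo2 and Fmo1 had 0.86 and 0.66 (adjusted p = 0.104, 0.162 and 0.27).

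Mitochondrial pathways had small positive medians and few DEGs, where 4.24 percent of all tested genes with a pathway were DEGs. Of all genes, 5.6 percent had an unadjusted p under 0.05 in the higher direction and 5.14 percent in the lower. Oxidative phosphorylation had 1 higher among 126 genes (0.794 percent) with a median log2 fold change of 0.098. Of its genes 94 were above 0, where 7479 of all 14772 tested genes were. Of 28 genes of the citrate cycle 0 met the criterion, which in a list this short is near the share of all genes. Of the 28, 4 had an unadjusted p under 0.05, all higher, and the median was 0.116. Fh (fumarase) had non-overlapping groups, with means of 166 ± 6.17 and 206 ± 18.8 FPKM (SD, n = 6) and a log2 fold change of 0.28 with an adjusted p of 0.402. Branched-chain amino acid degradation had 1 lower among 47 genes (2.13 percent) and a median of 0.193. At an unadjusted p under 0.05, 9 of its genes were higher and 2 lower. Hibadh of valine breakdown had means of 84 ± 8.87 and 116 ± 10.1 FPKM without overlap (log2 fold change 0.43, adjusted p = 0.18).

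Set against catgut group 1, catgut group 2 differed in few genes. The criterion was met by 1.25 percent of all genes, 133 higher and 51 lower, and an adjusted p under 0.05 was found for 0.00677 percent, a single gene. This gene, listed as Knop1 (ENSRNOG00000048270), was at 0 in all 6 libraries of catgut group 1 and between 0.328 and 0.532 FPKM in catgut group 2. It was also at 0 in treadmill replicates 1 and 2 and in control replicates 1, 3 and 5. The table gives the same symbol to another gene, so reads may have been divided between near-identical copies, and its value is uncertain. Of the 35 genes that differed from the treadmill group, 0 had an adjusted p under 0.05 between the catgut groups by edgeR, DESeq2 or limma, and 6 had an unadjusted p under 0.05 by edgeR, 7 by DESeq2 and 4 by limma. Of all genes, 3.26 percent had one by edgeR, 1.87 percent higher and 1.39 percent lower. Their log2 fold changes between the catgut groups ran from -0.58 to 0.84, with a median size of 0.234. Since the 35 were chosen for their difference from the treadmill group, this size is not set against the one there. The widest was that of Fam151a, with 0.84 (SE 0.24, unadjusted p = 0.0038), between 1.46 and 2.73 FPKM in catgut group 2 and between 0.781 and 1.55 FPKM in catgut group 1. Stat5b had -0.43 (unadjusted p = 0.0076). These p-values do not show that the catgut groups are alike for the 35 genes.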

How the data were processed

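Quadriceps RNA of 24 rats was sequenced from poly(A) libraries, and the comparisons here used 18 of them in groups of 6 taken from the labels, with the control group beside them. Per the submitters' processing notes, HISAT2 2.0 and StringTie 1.3.0 were used, with no role named there. The genome build is not given in the sources used here. The authors deposited a table with a count and an FPKM value for each gene and library. The commonest deposited count above 0 was 4, so that 1 fragment seems to add about 4 counts, which the sources used here do not explain, and 12 counts (about 3 fragments) were taken as the limit of detection.

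Counts were tested with edgeR 4.0.16 (quasi-likelihood, TMM scaling) in R 4.3.3 for genes with a mean of at least 0.1 FPKM, each comparison on its own 12 libraries, and p-values were adjusted by the Benjamini-Hochberg method. Log2 fold changes with their SE are those of this fit. The study's criterion was applied with these p-values to the ratio of group mean FPKM. Single genes were also given exact two-sided permutation tests on log2(FPKM + 1) over 924 arrangements, whose smallest p is 0.00216. DESeq2 1.42.0, limma 3.58.1, other filters, pseudocounts and left-out libraries were alternatives. Each library is 1 rat, no sources tie rats to a batch, and an FPKM of 0 can be a failed estimate.

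The genes named are those with an adjusted p under 0.05, those with the largest differences among groups that did not overlap, those the study names, and the members of each list or pathway with the smallest p. Some genes that this rule names are not reported here. The comparison, the lists and the members were chosen with earlier results of these data known. Python 3.11.15 and matplotlib 3.10.9 drew the figures, and promoter windows came from RefSeq (GRCr8).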

Additional observations from a re-analysis of the deposited data

Results flagged for a closer look

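Among 202 groups of 6 libraries examined, 20 held a library over Dixon's critical value. The measure is the gap to the nearest neighbour as a share of the group's range. That value marks about 1 in 20 groups of normally distributed values. The rate was not shown to hold for the FPKM of these chosen genes, and every flagged library was the highest of its group. Of the 20 flags, 7 were liver transcripts in treadmill replicate 3. They were Alb at 226 FPKM, Serpina1 at 25.9, Ttr at 23.1, Fabp1 at 35.1, Apoc3 at 18.6, Apoa1 at 11.8 and Apoa2 at 15.6 FPKM. Traces of such transcripts also stood apart in catgut group 2, with Fabp1 at 0.346 FPKM and Slc27a2 at 0.273 FPKM in replicate 2 and Apoa2 at 0.0763 FPKM in replicate 6.

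Treadmill replicate 2 was flagged as the highest of its group for 3 genes with a next library not far below. They were Selenos (26.5 FPKM, next 22.35), Klf15 (22.8, next 15.1) and Nfe2l2 (21.6, next 14.2). It was also flagged for the chemokine Ccl7 (23.1 FPKM, next 2.37). Catgut 2 replicate 2 was flagged as the highest of its group for Asb2 (252 FPKM, next 168) and Palmd (28.8, next 19.8). The same held for Col5a3 (4.38, next 2.12) and Mmp14 (7.28, next 2.82). Ccl4 stood apart in catgut 2 replicate 4 (0.0919 FPKM) and Ifi44 in catgut 2 replicate 3 (3.49 FPKM).

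Between the catgut groups, the gene listed as Knop1 (ENSRNOG00000048270) had a fitted log2 fold change of 8.04, which has no meaning as a size because all 6 catgut 1 libraries were at 0, and its difference is uncertain because the symbol is shared with another gene.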

How the results depend on the processing

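Between catgut group 2 and the treadmill group, 555 genes met the criterion, 1039 without a filter on low values, 292 from a mean of 1 FPKM, and 499 to 654 when 1 library was left out. The 35 adjusted calls became 309 with DESeq2, 21 with limma on log2(FPKM + 1), 54 with one fit over all 4 groups, 14 without treadmill replicates 2 and 3, and 6 to 30 when 1 library was left out. In subsets chosen after the data were seen, 1 gene was called among libraries without Eif2s3y and 2 among those with it. Of 34 of these genes named with values, all were called by DESeq2 and 15 by limma. With the replicate number as a block, 3 genes were called and 483 met the criterion. The numbers did not pair the libraries, since the correlation of deviations ran from -0.447 to 0.273, with 1 pair over 0.1 and 1 library closest to its own number. Between the catgut groups, 184 genes met the criterion, 578 without a filter, 73 from 1 FPKM, and 170 to 271 when 1 library was left out. The single adjusted call by edgeR became 8 with DESeq2 and 2 with limma at either pseudocount. It became 0 from 1 FPKM (365 genes at an unadjusted p under 0.05), in one fit over 4 groups (490), with the replicate block (491) and with counts divided by 4 (503), and 0 to 2 when 1 library was left out (0 without catgut 2 replicate 3, with 394 at an unadjusted p under 0.05, and 2 without catgut 1 replicate 5). Of the genes named with values, 4 turned in sign: Clock to 0.11 without treadmill replicate 3 (range -0.82 to 0.11 when 1 library was left out), Cry1 to 0.35 and Nfil3 to 0.14 among libraries with Eif2s3y, and Apoa1 to 0.10 without treadmill replicates 2 and 3. The causes were not tested. Low counts limit genes under 1 FPKM most.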

Other observations

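A few further genes met the criterion with values that differed widely among the catgut 2 libraries, and they were picked after their values were seen. The transcript listed as AABR07000398 (ENSRNOG00000047746) reached 839 and 722 FPKM in catgut 2 replicates 5 and 6 and was between 0 and 0.812 FPKM in the other 4 libraries of the group and between 0 and 7.89 FPKM in the treadmill group. Its fitted log2 fold change was 7.47 (adjusted p = 0.296 by edgeR, exact permutation p = 0.206). It was also at 1374 FPKM in control replicate 4 and at 562 FPKM in catgut 1 replicate 4. Pex5, a receptor of peroxisomal import, was at 3.73 FPKM in catgut 2 replicate 4 and listed at 0 in the other 23 libraries.

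Angptl7, a secreted angiopoietin-like factor, averaged 1.55 ± 1.61 FPKM in treadmill libraries and 13.6 ± 10.9 FPKM in those of catgut group 2 (SD, n = 6 each). The log2 fold change was 3.03 (SE 0.892, adjusted p = 0.215 by edgeR), and the exact permutation p was 0.0281. Catgut 2 replicate 6 was the lowest of its group at 0.46 FPKM, and control replicate 4 reached 54.2 FPKM.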
